A study of Mus musculus with 8 samples.

Results

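The comparison described here was the step from embryonic day (E) 12.5 to E13.5 in the sorted *Hic1* lineage of the mouse forelimb. It held 1 single-cell library at each stage, and its members were all cells of these libraries with at least 3000 UMIs (unique molecular identifiers, each standing for 1 captured RNA molecule) and at most 10% of UMIs from mitochondrial genes. That rule kept 4714 of 4987 barcodes at E12.5 and 6123 of 6896 at E13.5, or 10837 of the 53085 cells that passed the same filter in all 8 libraries of the series. Both libraries came from C57BL/6J embryos of the genotype Hic1CreERT2/CreERT2;Rosa26LSLtdTomato/tdTomato, in which a Cre recombinase placed at *Hic1* and switched on by tamoxifen marks *Hic1*-expressing cells and their descendants permanently with the red fluorescent protein tdTomato. The dams of both stages were gavaged with 7.5 mg of tamoxifen at embryonic day 10, so the marked cells were those that expressed *Hic1* soon after that dose, with their progeny. Forelimbs of several embryos were pooled for a library, and tdTomato+ cells were sorted after removal of cells carrying CD45, CD117, CD31, CD11b, F4/80 or Ter119. With 1 library a stage there is no replicate error, so no test was made. Intervals are 95% and cover counting error only.

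The stages also differed in how the limbs were taken apart. E11.5 and E12.5 limbs were digested with Dispase, and E13.5 and later limbs with collagenase A, pronase and DNase, so stage and dissociation cannot be told apart in any value below. Both libraries used the same version of the 10x 3′ kit. Median depth was 8683 UMIs and 3209 genes a cell at E12.5 and 6788 UMIs and 2696 genes at E13.5. The median mitochondrial share was 2.37% and 2.43%. The libraries shared 37 cell barcodes, 0.785% of the smaller library. The tdTomato transcript was at 680 CPM at E12.5 (CPM being a UMI count scaled so that all libraries have the same total) and 702 CPM at E13.5, and 76.5% and 79.0% of cells held a tdTomato UMI once every cell was thinned to 3000 UMIs. *Hic1* itself was at 38.0 and 26.3 CPM. Of 7 general mesenchyme markers, such as *Prrx1*, *Twist1*, *Pdgfra* and *Col1a1*, at least 1 was detected in 99.4% and 98.8% of cells at that depth. Globin UMIs were in 0.0212% and 0.049% of cells. Summed over 9 matched immune markers the level was 5.13 and 4.91 CPM, and over 9 matched myogenic markers 10.4 and 3.06 CPM.

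At this age the limb mesenchyme is being divided among its fates. Mesenchymal cells that condense under the transcription factor SOX9 become chondrocytes and lay down a matrix of type II, IX and XI collagens and aggrecan. Neighbouring cells that express *Scx* form tendon, and the remaining cells become fibroblasts and other connective tissue. BMP signals act through SMAD proteins to induce the *Id* genes, whose products bind basic helix-loop-helix transcription factors and hold back differentiation.

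In the sums over all cells, 8727 genes reached 10 CPM in the higher of the 2 libraries. A gene under that floor at 1 stage entered through the other stage, and could not count as moving away from it. A gene is said to have risen or fallen where the ratio of CPM + 1, E13.5 over E12.5, was at least 2 or at most 0.5. By that rule 120 genes rose, 1.38% of those compared, and 146 fell, 1.67%. The median log2 ratio was -0.05. Between the 2 whole-limb E11.5 libraries, which are replicates, 4 of 8011 genes passed the same fold in each direction, 0.0499%. The 4 higher in the second were the Y-linked *Ddx3y*, *Eif2s3y*, *Kdm5d* and *Uty*, and *Xist* was among the 4 lower. Those replicates shared a stage and its dissociation, unlike the libraries compared here. In the preceding step of the sorted lineage, from E11.5 to E12.5, 179 genes rose and 80 fell of 8753. Past 4-fold were 18 of the genes that rose and 25 of those that fell.

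**Figure D1:**
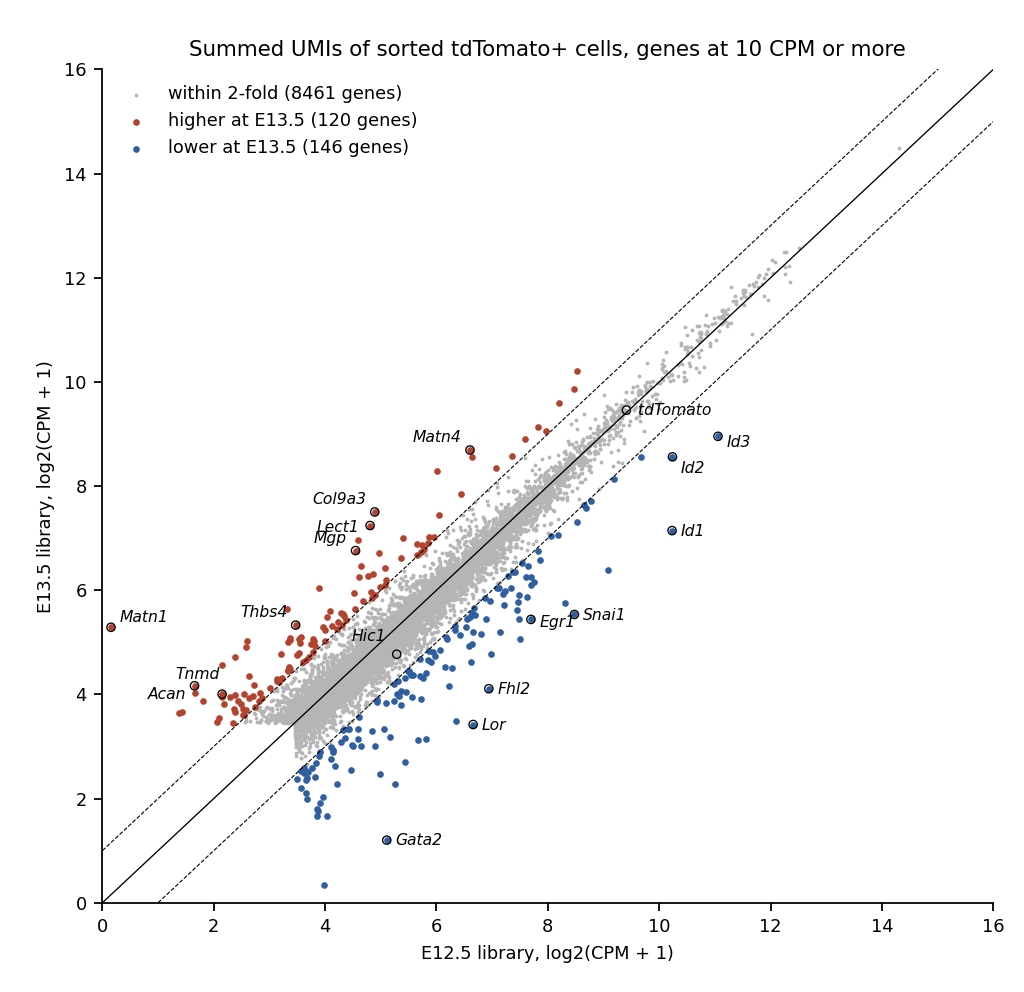
Each point is a gene at 10 CPM or more, placed by log2(CPM + 1) of its summed UMIs in the E12.5 library (horizontal) and the E13.5 library (vertical), with dashed lines at 2-fold. Cartilage matrix genes such as *Matn1* and *Col9a3* lie above the band, *Id1*, *Snai1*, *Fhl2* and *Gata2* lie below it, and tdTomato lies on the diagonal.

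The changes were present in the cells as well as in the sums. With every cell at 3000 UMIs, all 120 genes that rose had a UMI in a larger share of cells at E13.5, and all 146 that fell in a smaller share, with intervals of the 2 shares apart for all 266. The median share over the genes that rose was 3.32% of cells at E12.5 and 8.12% at E13.5. Over the genes that fell it was 14.2% and 5.41%. The number of UMIs in each positive cell moved the same way for 107 of the 120 and 137 of the 146. These values come from the same counts as the call and describe it, rather than adding to it.

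**Figure D2:**
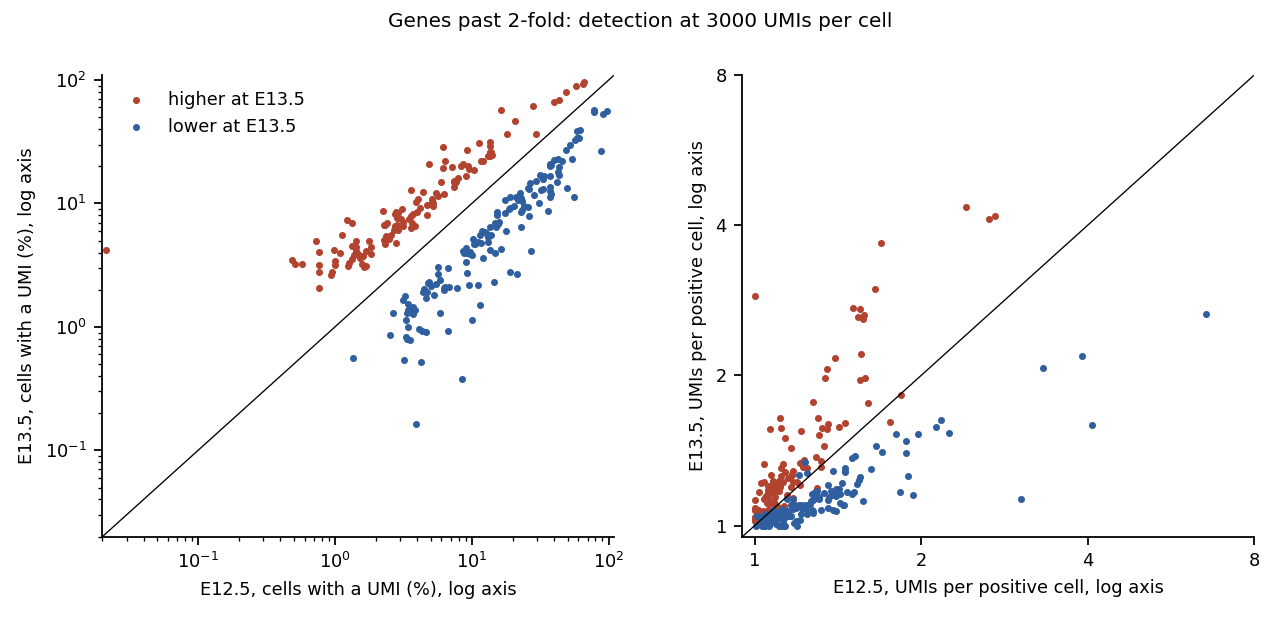
For the 266 genes past 2-fold, the left panel plots the percent of cells with a UMI at E12.5 and E13.5 and the right panel the UMIs per positive cell, on log axes, after each cell was thinned to 3000 UMIs. All red points (120 genes) lie above the diagonal on the left and all blue points (146 genes) below it, and on the right 107 and 137 of them do.

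The 4 highest ratios belonged to genes of cartilage. Of 25 genes in a list of chondrogenic regulators and matrix, 17 reached 10 CPM, and 11 of these rose and none fell, beside 1.38% of all genes. Their median log2 ratio was 1.41, against -0.05 over all genes, and the summed level of the list went from 952 to 2401 CPM. Members such as *Matn1*, *Acan* and *Col11a2* reached the floor only at E13.5, and so could not have counted as fallen. *Matn1*, which encodes the cartilage matrix protein matrilin-1, was at 0.113 CPM at E12.5 (5 UMIs in the whole library) and at 38.1 CPM at E13.5 (1729 UMIs), a 337-fold ratio of CPM with an interval of 144 to 1039. *Col9a3*, a chain of type IX collagen, was at 28.7 CPM (27.1 to 30.3) and then 180.4 CPM (176 to 184), 6.29-fold higher. *Acan*, the large proteoglycan of cartilage, was at 2.15 and 16.9 CPM, and *Lect1*, which encodes chondromodulin, at 27.0 and 150.4 CPM. *Matn4*, another matrilin, was at 96.1 and then 413 CPM. The fibrillar collagen genes *Col11a2* (2.17 and 15.3 CPM) and *Col11a1* (85.7 and 229 CPM), and *Col9a1* (64.9 and 172 CPM), rose as well. *Mia*, *Scrg1* and *Wwp2* completed the group, at 22.7, 25.2 and 129 CPM at E13.5. *Hapln1*, the link protein that ties aggrecan to hyaluronan, went from 0.837 to 9.41 CPM and so lay just under the floor.

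The transcription factors that direct this programme moved less than its matrix genes. *Sox9* was at 199.9 CPM at E12.5 and 272 CPM at E13.5, a log2 ratio of 0.44. *Sox5* and *Sox6*, which act with it, had log2 ratios of 0.66 and 0.72. *Col2a1* (191 and 372 CPM) and *Col9a2* (94.5 and 188 CPM) had log2 ratios of 0.95 and 0.98, just under 2-fold.

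Cells were also counted by markers, several of which, such as *Matn1*, *Col9a3*, *Acan* and *Lect1*, had risen in the sums. These counts come from the same UMIs and describe that rise, rather than adding to it. At 3000 UMIs, 18.2% of E12.5 cells (17.1 to 19.4) and 31.7% of E13.5 cells (30.6 to 32.9) held at least 3 of 11 chondrogenic markers, and without thinning 33.3% and 45.9% did. This class is a range on a scale and not a cell type, with 566 and 767 cells at 2 markers and 326 and 407 at exactly 3. The upper end of the scale grew most, as 2.65% of cells at E12.5 and 15.3% at E13.5 held 6 or more. In library sums, a larger number of cartilage-forming cells and more RNA in each cannot be told apart, so levels were also read within cells. In cells with a *Sox9* UMI at equal depth, 1507 at E12.5 and 2371 at E13.5, *Col9a3* was detected in 14.1% and then 42.9%, *Lect1* in 211 and 863 of those cells and *Acan* in 26 and 257. *Matn1* was seen in 1 of the 1507 cells and in 212 of the 2371. In the 3207 and 3752 cells with no *Sox9* UMI the shares were lower at both stages, with *Col9a3* in 2.77% and 8.61%, *Lect1* in 77 and 317 cells and *Acan* in 8 and 47. Both groups held more cells at E13.5, so where a number of cells is given its rise is larger than that of the share. The rise from E12.5 to E13.5 was thus seen among cells with a *Sox9* UMI and, at a lower level, among cells without one. At 3000 UMIs a cell with no *Sox9* UMI may still express the gene, so the latter are not *Sox9*-negative cells. The part of free RNA in these shares was not tested.

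**Figure D3:**
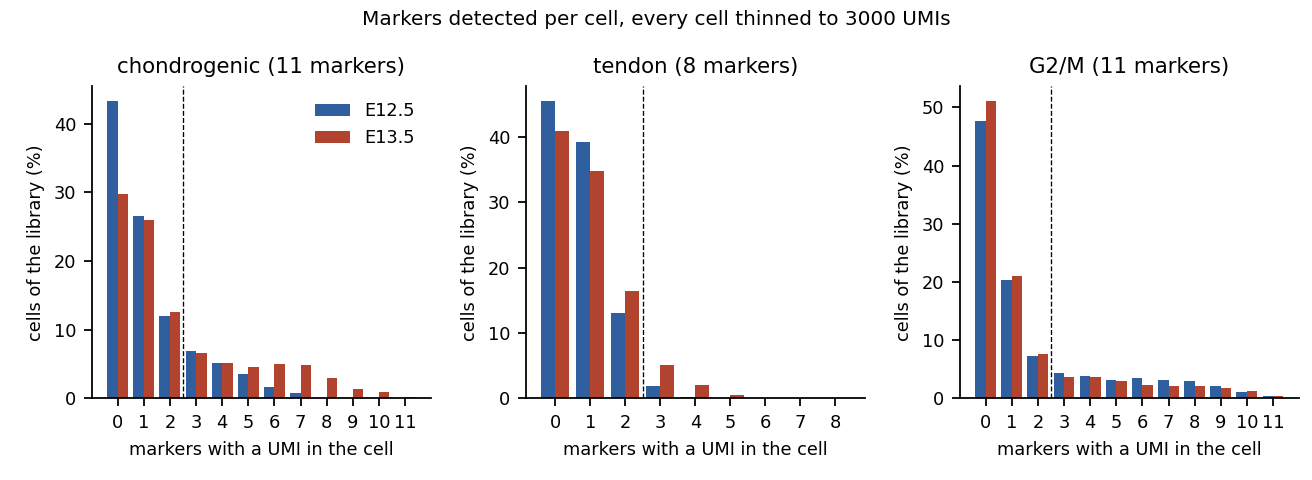
Bars give the percent of cells of each library (E12.5 blue, E13.5 red) by the number of chondrogenic, tendon or G2/M markers with a UMI, after every cell was thinned to 3000 UMIs; the dashed line marks 3 markers. At 3 or more markers lie 18.2% and 31.7% of cells for chondrogenic, 2.23% and 7.77% for tendon and 24.8% and 20.2% for G2/M markers.

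Inside the cells with 3 or more chondrogenic markers, *Col11a1*, *Mia* and *Scrg1* were again higher at E13.5. The class was not made up alike, since cells with 6 or more markers were 2.65% of all cells within its 18.2% at E12.5 and 15.3% within its 31.7% at E13.5. Its sums therefore include this shift along the scale. In UMIs summed over these cells, *Sox9* was at 626 CPM at E12.5 and 698 CPM at E13.5, *Sox5* at 142 and 176 CPM and *Sox6* at 164 and 189 CPM. *Col11a1*, which was not among the markers, was at 240 and 547 CPM, and *Mia* and *Scrg1*, also not among them, at 14.6 and 67.7 CPM and at 21.2 and 80.6 CPM. The markers *Sox9*, *Matn1* (0.684 and 125 CPM) and *Acan* (10.9 and 54.4 CPM) helped to choose the cells, so their values only describe the choice. The same holds for markers outside the class. There *Matn1* was at 0 UMIs at E12.5 and 1.78 CPM at E13.5, and *Col2a1* at 93.8 and 75.5 CPM. *Six2*, a homeobox gene of the tendon list at 31.4 CPM at E13.5, and *Gdf10*, a BMP-family ligand at 45.6 CPM, rose in the sums over all cells, each with a log2 ratio of 1.22. Neither passed 2-fold once cells with 3 or more chondrogenic markers were left out, at 6.56 and 7.45 CPM for *Six2* and 15.7 and 15.2 CPM for *Gdf10*. *Foxc2* (4.77 and 11.1 CPM) likewise went to 4.25 and 5.04 CPM.

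The tendon list split. Of its 19 genes 18 reached the floor, 7 rose and 3 fell, 38.9% and 16.7%, beside 1.38% and 1.67% of all genes, and the median log2 ratio was 0.40. Most of the genes that rose encode proteins of the tendon cell surface or matrix. *Tnmd*, the tendon membrane protein tenomodulin, was at 3.44 and 15.1 CPM. *Thbs4* and *Thbs2*, thrombospondins of the tendon matrix, were at 10.1 and 39.2 CPM and at 4.21 and 11.6 CPM. *Aspn* (8.19 and 26.2 CPM) and *Fmod* (21.8 and 60.8 CPM) encode small leucine-rich proteoglycans that bind collagen, and *Htra3*, a secreted protease, was at 10.5 and 26.6 CPM. *Six2* was the seventh. Of these genes *Tnmd*, *Thbs2* and *Aspn* reached the floor only at E13.5. The tendon regulator *Scx* stayed within 2-fold at 183 and 160.1 CPM, *Mkx* at 43.4 and 71.6 CPM and *Kera*, keratocan, at 88.1 and 172 CPM. Among the members that fell were the zinc finger genes *Egr1* and *Egr2*, described with the immediate early genes. Of 8 tendon markers used to count cells, *Tnmd*, *Fmod*, *Thbs4*, *Htra3* and *Aspn* had risen in the sums, so the count describes the same rise. Cells with 3 or more of the 8 made up 2.23% at E12.5 (1.83 to 2.69) and 7.77% at E13.5 (7.12 to 8.47), with 615 and 1007 cells at 2 markers. At E13.5, 109 of these 476 cells, 22.9%, also held 3 or more chondrogenic markers, and at E12.5 23 of 105 did, 21.9%. Over all cells the share with 3 or more chondrogenic markers was 31.7% at E13.5 and 18.2% at E12.5. The overlap thus lay below the share of all cells at E13.5 and above it at E12.5. *Tnmd*, *Thbs4* and *Htra3* were higher outside the chondrogenic class than inside it at both stages.

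Some interstitial matrix genes rose and none fell by 2-fold. Of 35 matched genes of the list 32 reached the floor and 7 rose, 21.9%, beside 1.38% of all genes. The median log2 ratio was 0.40, and the other 25 members stayed within 2-fold. The largest ratio was that of *Mgp*, matrix Gla protein, an inhibitor of calcification, which was at 22.4 and 108 CPM and in 4.88% and 20.8% of cells at equal depth. *Cthrc1*, a secreted collagen-associated protein, was at 98.2 and 375 CPM and in 20.7% and 46.3% of cells. *Postn*, periostin, was at 24.1 and 86.9 CPM, and *Bgn*, biglycan, at 32.6 and 85.6 CPM. *Eln* and *Col8a2* were at 14.9 and 36.5 CPM and at 16.3 and 38.8 CPM. *Dcn*, decorin, reached 535 CPM at E13.5, a log2 ratio of 1.10. These genes were not distributed alike. At E13.5 *Mgp* and *Cthrc1* were higher inside the chondrogenic class (252 and 746 CPM) than outside it (46.6 and 219 CPM), whereas *Postn* and *Dcn* were higher outside it (115 and 706 CPM) than inside (19.2 and 128 CPM). The main fibrillar collagens hardly moved, *Col1a1* at 560.0 and 709 CPM and *Col3a1* at 935 and 847 CPM. *Htra1*, a secreted serine protease counted with the matrix proteases, had one of the larger ratios of all, from 8.96 to 49.1 CPM, and no other of the 15 protease and inhibitor genes at the floor passed 2-fold.

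**Figure D4:**
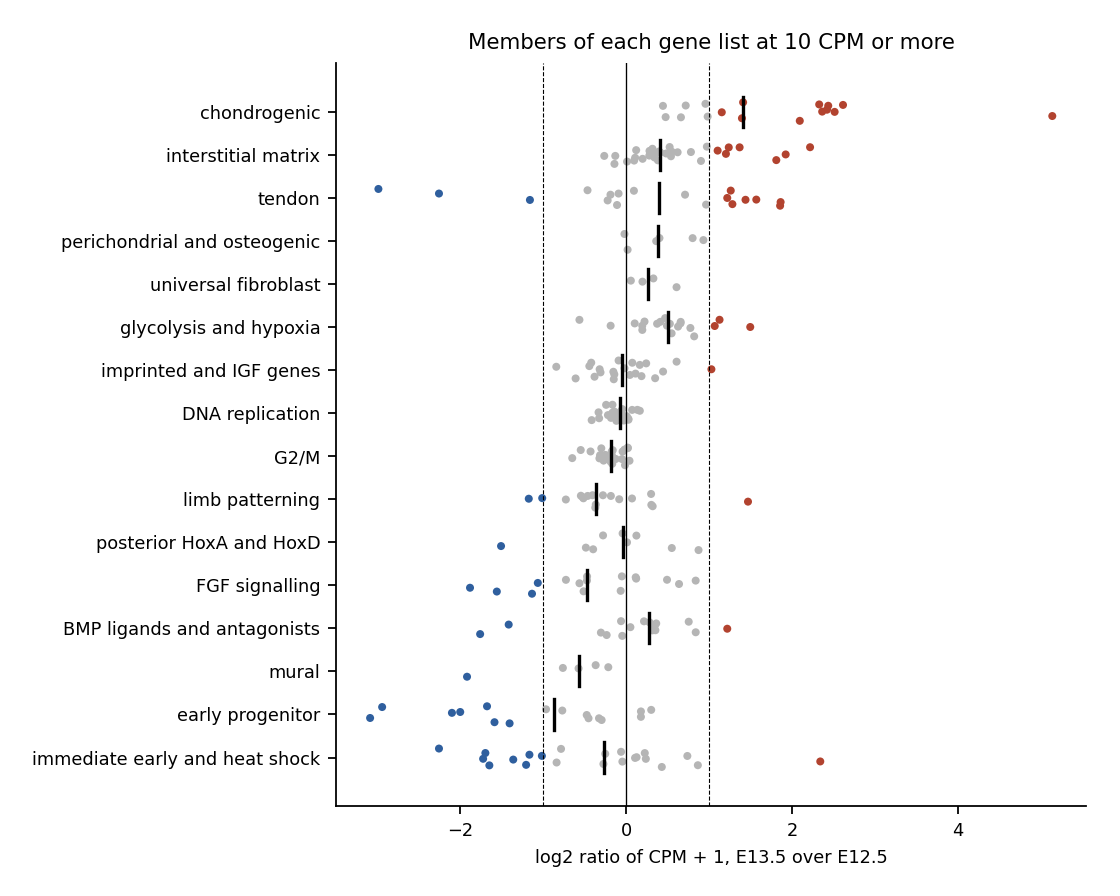
Each point is a member of a gene list at 10 CPM or more, placed by its log2 ratio of CPM + 1 (E13.5 over E12.5), with red for higher and blue for lower by 2-fold, a black bar at the list's median and dashed lines at 2-fold. The chondrogenic list lies wholly to the right of 0, the G2/M and DNA replication lists lie within 2-fold, and the early progenitor and immediate early lists hold 7 and 8 of the blue points.

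All 4 *Id* genes, *Snai1* and *Snai2* fell. In a list of early progenitor genes 16 of 20 reached the floor, 7 fell and none rose, beside 1.67% of all genes, and the median log2 ratio was -0.87. *Id1* was at 1201 CPM at E12.5 and 140.5 CPM at E13.5, 8.55-fold lower. *Id3* was at 2128 and 495 CPM, *Id2* at 1207 and 377 CPM and *Id4* at 214 and 70.5 CPM. The difference was also seen cell by cell. At equal depth 88.1% of E12.5 cells and 26.6% of E13.5 cells held an *Id1* UMI, with 4.07 and 1.59 UMIs in each positive cell. At least 3 of the 4 *Id* genes were detected in 84.7% of E12.5 cells (83.7 to 85.7) and in 1224 of the 6123 E13.5 cells, 20.0%, and none of the 4 in 0.573% (0.378 to 0.832) and 20.5% (19.5 to 21.5). At E12.5 the cells with 3 or more chondrogenic markers did not stand apart, with none of the 4 in 0.582% of them and 0.571% of the rest. At E13.5 they did, with 8.44% (7.24 to 9.77) against 26.1% (24.8 to 27.5) in the rest, and the intervals lie apart. In the sums *Id1* was at 243 CPM inside the class and 97.3 CPM outside it at E13.5, from 1158 and 1210 CPM at E12.5.

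*Snai1*, a zinc finger repressor active in mesenchymal cells, was at 355 and 45.4 CPM and in 56.2% and 11.3% of cells. Its relative *Snai2* was at 97.1 and 23.5 CPM. *Aldh1a2*, which makes retinoic acid, was at 55.1 and 20.2 CPM. *Hmga2*, a chromatin protein of embryonic cells, was at 481 and 245 CPM, a log2 ratio of -0.97 and so just short of 2-fold, and the RNA-binding protein genes *Igf2bp1* and *Igf2bp3* had log2 ratios of -0.77 and -0.48. *Sox4* and *Sox11* stayed near their E12.5 levels, with log2 ratios of 0.18 and -0.30.

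Some feedback inhibitors and targets of BMP and FGF signals fell, while most members of both lists stayed within 2-fold. *Smad6* and *Smad7*, which block BMP and TGF-beta receptors and are induced by them, were at 42.9 and 15.4 CPM and at 197 and 57.4 CPM. *Atoh8*, a helix-loop-helix gene, was at 42.0 and 5.53 CPM. Of the 17 members of the BMP list at the floor these 2 *Smad* genes fell, 11.8%, and *Gdf10* rose, 5.88%, beside 1.67% and 1.38% of all genes, and the ligand genes *Bmp2*, *Bmp4* and *Bmp7* had log2 ratios of 0.31, -0.24 and -0.06. In the FGF list 4 of 16 fell, 25%, beside 1.67% of all genes, and none rose. They were the feedback inhibitors *Spry4* (28.9 and 7.09 CPM), *Spry2* (138 and 65.3 CPM) and *Dusp6* (177 and 59.4 CPM), and *Etv5* (60.5 and 27.0 CPM), a transcription factor induced by FGF. The receptors *Fgfr1* and *Fgfr2* had log2 ratios of -0.47 and -0.07. In other pathways single members fell, again beside 1.67% of all genes: *Notch1* (52.9 and 18.8 CPM) of 7 Notch genes, 14.3%, *Skil* (208 and 75.3 CPM), a repressor of SMAD signalling, of 11 TGF-beta genes, 9.09%, and the receptor *Fzd7* (45.1 and 20.2 CPM) of 16 Wnt genes, 6.25%. *Spry2* fell short of 2-fold without chondrogenic cells and *Fzd7* with a pseudocount of 5 CPM. *Hes1*, a Notch target, was at 639.9 and 349 CPM, a log2 ratio of -0.87. No member of the hedgehog list passed 2-fold, with log2 ratios from -0.43 for *Ptch1* to 0.27.

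Among secreted signals 5 of 73 rose, 6.85%, and 3 fell, 4.11%, beside 1.38% and 1.67% of all genes. Beside *Gdf10*, those that rose were *Angptl4* (12.5 and 30.2 CPM), *Nppc* (6.33 and 14.2 CPM), a natriuretic peptide, *Sostdc1* (51.5 and 106 CPM), an inhibitor of BMP and Wnt, and *Igfbp7* (18.8 and 39.3 CPM). Those that fell were *Ctgf* (24.1 and 7.05 CPM), *Cyr61* (813 and 375 CPM) and *Fgf8* (16.2 and 6.92 CPM). *Dkk3*, next among those higher, had a log2 ratio of 0.93, and *Igfbp3*, *Ntn1* and *Sema3f*, next among those lower, had ratios of -0.84, -0.67 and -0.46. Of these genes 4 that rose and 1 that fell lost the call under another setting: *Sostdc1* and *Igfbp7* under TMM scaling among others, *Nppc* with a pseudocount of 5 CPM or without G2/M cells, *Gdf10* without chondrogenic cells, and *Fgf8* with that pseudocount, with cells thinned or without either class of cells. *Fgf8* is a signal of the epithelial ridge of the limb. The epithelial markers *Epcam* and *Krt18* were at 31.3 and 21.7 CPM and at 21.4 and 19.7 CPM. Every other marker of the epithelial list was at 2.58 CPM or less at both stages, and *Krt14* had 0 UMIs in both libraries. The part of such cells in its level was not tested.

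Immediate early genes, which respond within minutes to growth factors, stress or tissue dissociation, fell in part. Of 22 genes of the immediate early and heat shock list at the floor 8 fell, 36.4%, and 1 rose, 4.55%, beside 1.67% and 1.38% of all genes. *Egr1* was at 206 and 42.4 CPM and in 37.3% and 11.4% of cells. *Egr2* and *Egr4*, of the same family but outside the list, were at 37.3 and 3.83 CPM and at 14.8 and 0.264 CPM. *Nab2* and *Nab1*, corepressors that bind EGR proteins and are induced by them, were at 317 and 53.1 CPM and at 46.2 and 14.4 CPM. *Zfp36* (32.2 and 9.03 CPM), *Gadd45g* (176 and 53.6 CPM), *Btg2* (94.5 and 29.4 CPM), *Junb* (194 and 75.1 CPM), *Ier2* (366 and 158 CPM), *Nr4a1* (54.4 CPM at E13.5) and *Klf6* (402 and 198 CPM) were the other members that fell. The list did not move as one: *Fos* was at 574 and 332 CPM, within 2-fold, while *Jun* (399 and 666 CPM) and *Fosb* (55.0 and 101 CPM) were higher at E13.5, with log2 ratios of 0.74 and 0.86. The heat shock gene *Hspa1a* rose from 4.97 to 29.2 CPM, and *Hspa8* and *Hsp90aa1* had log2 ratios of 0.12 and -0.05. The change of dissociation enzymes falls exactly between these 2 libraries, and its part in these genes was not tested.

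Several other genes that fell encode proteins that bind actin or its adhesions, although none of 13 genes of the adhesion list at the floor passed 2-fold. *Fhl2*, a LIM-domain cofactor, was at 122 and 16.3 CPM, 7.49-fold lower, and in 27.1% and 4.12% of cells. *Filip1l* was at 74.1 and 16.9 CPM, and *Tagln*, transgelin, at 21.0 and 4.83 CPM. The adhesion proteins *Vcl* and *Zyx* were at 84.3 and 34.5 CPM and at 168 and 80.5 CPM, *Cnn2* at 411 and 190.5 CPM and *Lima1* at 267 and 131 CPM. *Srf*, whose product drives both immediate early genes and actin genes, was itself at 51.2 and 19.5 CPM. These names were picked out after their values were seen. The DNA sequence bound by SRF, the CArG box, was chosen for a search because of them. Both strands of the 250 bases before each start site listed by RefSeq (GRCm38.p6) were searched. Of the 146 genes that fell, 110 had an entry there. The box was present for 12 of these 110, 10.9%, beside 99 of 7013 matched genes at the floor, 1.41%. Among matched genes that rose it was present for 1 of 74, 1.35%. *Fhl2*, *Filip1l*, *Srf*, *Vcl*, *Cnn2* and *Lima1*, which led to the search, are among the 12, so the share is not independent of that choice. Over all 27025 genes of the promoter table the share was 1.62%, and in the immediate early and heat shock list 1 of 19 matched genes had the box, 5.26%. The 12 were *Egr2*, *Fhl2*, *Filip1l*, *Zfp36*, *Srf*, *Myo1e*, *Vcl*, *Fam60a*, *Dnm3os*, *Arid3b*, *Cnn2* and *Lima1*. Genes with several listed starts had more sequence searched, and a match is not evidence of binding.

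The promoters of the 4 of these genes with the lowest ratio are shown, 5′ to 3′ on the strand of the gene and ending at the base before its start, because each carries the box, written in capitals. They lie at chr10:67537316-67537565 on the plus strand (*Egr2*), chr1:43163962-43164211 on the minus strand (*Fhl2*), chr16:57548992-57549241 on the plus strand (*Filip1l*) and chr7:28379229-28379478 on the minus strand (*Zfp36*).
Egr2: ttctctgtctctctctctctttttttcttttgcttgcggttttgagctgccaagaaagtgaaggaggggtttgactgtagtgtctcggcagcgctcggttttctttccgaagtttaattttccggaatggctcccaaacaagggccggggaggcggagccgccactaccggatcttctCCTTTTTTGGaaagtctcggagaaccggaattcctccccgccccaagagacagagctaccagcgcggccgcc
Fhl2: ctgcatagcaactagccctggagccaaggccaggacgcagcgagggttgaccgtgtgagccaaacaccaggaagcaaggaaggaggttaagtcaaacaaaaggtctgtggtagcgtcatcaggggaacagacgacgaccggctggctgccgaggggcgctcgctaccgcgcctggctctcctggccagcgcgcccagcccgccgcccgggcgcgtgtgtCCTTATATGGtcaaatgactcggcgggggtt
Filip1l: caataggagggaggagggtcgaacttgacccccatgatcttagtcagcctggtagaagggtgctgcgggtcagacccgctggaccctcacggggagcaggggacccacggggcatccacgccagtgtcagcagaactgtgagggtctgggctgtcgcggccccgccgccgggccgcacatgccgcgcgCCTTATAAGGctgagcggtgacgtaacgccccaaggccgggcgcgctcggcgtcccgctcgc
Zfp36: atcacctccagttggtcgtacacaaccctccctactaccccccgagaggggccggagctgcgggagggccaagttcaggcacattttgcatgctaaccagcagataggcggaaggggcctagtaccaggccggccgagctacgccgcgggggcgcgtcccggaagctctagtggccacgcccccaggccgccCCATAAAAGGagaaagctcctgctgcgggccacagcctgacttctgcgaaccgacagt
The box ended 62 bases before the start in *Egr2*, 21 in *Fhl2*, 52 in *Filip1l* and 48 in *Zfp36*. For *Egr2*, 4 of 5 listed starts had it within 250 bases, and for *Filip1l* 1 of 2.

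Transcription factors fell far more often than they rose. Of 176 genes of the main families at the floor 25 fell, 14.2%, and 3 rose, 1.7%, against 1.67% and 1.38% of all genes. Among the 25 were all *Id* genes, *Snai1*, *Snai2*, *Egr1*, *Egr2*, *Egr4*, *Nr4a1*, *Klf6*, *Etv5*, *Atoh8*, *Hoxd8*, *Msx1* and *Tbx3*. These are also reported with other lists or groups, so this share overlaps with those and is not a separate result. The lowest ratio of CPM + 1 of any gene compared was that of *Gata2*, a zinc finger factor, at 33.5 and 1.3 CPM. It was detected in 8.51% of cells at E12.5 and 0.376% at E13.5. *Klf9* was at 125 and 26.4 CPM, and *Maff*, a small MAF factor outside the list of families, at 179 and 32.5 CPM. Among the 3 that rose were *Six2* and *Foxc2*, described above. *Osr1*, which marks connective tissue progenitors, stayed within 2-fold, at 98.5 and 189 CPM and a log2 ratio of 0.93, followed by *Hoxd13*, *Mef2c* and *Creb3l1* at 0.87, 0.80 and 0.78.

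Most positional genes stayed within 2-fold, but members of both lists passed it. Of 9 posterior *HoxA* and *HoxD* genes at the floor *Hoxd8* fell, 11.1%, beside 1.67% of all genes, at 21.8 and 7.01 CPM. *Hoxd13* and *Hoxd12*, the most distal of the cluster, had log2 ratios of 0.87 and 0.55, and *Hoxd9*, *Hoxd10* and *Hoxd11* ratios of -0.40, -0.28 and -0.49. Of 18 limb patterning genes at the floor 2 fell, 11.1%, and 1 rose, 5.56%, beside 1.67% and 1.38% of all genes, and the median log2 ratio was -0.37. *Msx1* (11.8 and 4.69 CPM) and *Tbx3* (79.2 and 38.8 CPM, a log2 ratio of -1.01) were those that fell. Both fell short of 2-fold with a pseudocount of 5 CPM, and *Tbx3* also with cells thinned or with mitochondrial, haemoglobin and ribosomal protein genes left out of the total. *Shox2*, *Hand2* and *Emx2* had log2 ratios of -0.52, -0.08 and 0.30.

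No gene of the G2/M or DNA replication lists passed 2-fold. All 26 genes of the G2/M list were at the floor, with a median log2 ratio of -0.18, against -0.05 over all genes, and a range from -0.65 for *Cenpe* to 0.04 for *Birc5*. *Top2a* was at 323 and 220.4 CPM and *Mki67* at 75.7 and 63.4 CPM. The 26 genes of the DNA replication list had a median of -0.07, close to that of all genes, and 7 of them were above 0. Cells with 3 or more of 11 G2/M markers made up 24.8% at E12.5 (23.6 to 26.1) and 20.2% at E13.5 (19.2 to 21.2). Within the chondrogenic class the shares were 27.9% and 22.5%. The cell cycle inhibitor *Cdkn1c*, an abundant imprinted gene, was at 1836 and 2497 CPM, a log2 ratio of 0.44. It does not stand for the inhibitor list, whose median was -0.21, with 3 of 9 genes at the floor above 0. In the 250 bases before their starts, CCAAT was present on either strand for 22 of 24 matched G2/M genes, 91.7%, beside 41.4% of matched genes at the floor and 37.5% of the whole table. TTTGAA was present for 9, 37.5%, beside 12.5% and 18.3%. TTTGGCGC was present for 3 of 21 matched DNA replication genes, 14.3%, beside 1.11% and 0.485%, and TTTCCCGC for 2, 9.52%, beside 2.28% and 1.03%. ACAATG, a motif read by SOX proteins, was present for 3 of 19 matched chondrogenic genes, 15.8%, beside 7.04% and 12.2%, and for none of the 9 matched members that rose.

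Glycolysis and hypoxia genes had a median log2 ratio of 0.51 over 20 genes, against -0.05 over all genes, and 3 of them rose, 15%, beside 1.38% of all genes. *P4ha2*, a collagen prolyl hydroxylase, was at 30.7 and 65.5 CPM and *Ankrd37* at 9.32 and 21.5 CPM. *Pgk1* was at 26.3 and 75.9 CPM, an uncertain value because near-identical copies may share its reads. The other two fell short of 2-fold with a pseudocount of 5 CPM, and *P4ha2* also with cells thinned or without chondrogenic cells. *Ldha*, *Tpi1* and *Eno1* had log2 ratios of 0.47, 0.77 and 0.62, while *Gapdh* had one of -0.56. The basement membrane, universal fibroblast, fibrogenic progenitor, dermal fibroblast, perichondrial and osteogenic, perineurial and adhesion lists had no member past 2-fold. In the fibrogenic list *Osr1*, *Rspo3* and *Osr2* had the highest log2 ratios, 0.93, 0.82 and 0.59. In several further lists single members passed. *Igfbp7* rose among 22 imprinted and IGF genes at the floor, 4.55%, beside 1.38% of all genes. Beside 1.67% of all genes that fell, *Aldh1a2* fell among 12 retinoic acid genes, 8.33%, *Tagln* among 5 mural genes, 20%, and *Nrp2* (98.7 and 46.5 CPM) among 20 chemokine and guidance genes, 5%. *Nrp2* fell short of 2-fold without the cells with 3 or more chondrogenic markers. Of 9 cell cycle inhibitor genes at the floor *Btg2*, also in the immediate early list, fell, 11.1%. Of 13 mitochondrial genes 3 rose, 23.1%, beside 1.38% of all genes. They were *mt-Nd5* (192 and 475 CPM), *mt-Nd4l* (163.5 and 382 CPM) and *mt-Nd6* (8.03 and 18.0 CPM), subunits of respiratory complex I, while the median of the list was 0.12. Complex I did not move as one, as *mt-Nd1*, *mt-Nd2*, *mt-Nd4* and *mt-Nd3* had log2 ratios of 0.24, 0.09, 0.12 and -0.24. Of 13 clustered histone genes at the floor 2 rose, 15.4%, *Hist2h2aa1* (1.70 and 11.7 CPM) and *Hist1h2bc* (22.3 and 49.0 CPM), and similar histone genes may share their reads. Among 97 ribosomal protein genes 3 rose, 3.09%, and 1 fell, 1.03%, with the same limit.

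Markers of cells outside the lineage were low, with exceptions. *Stmn2*, a neuronal gene, was at 23.5 and 75.8 CPM and in 2.76% and 6.52% of cells, and the 10 neuronal markers summed to 84.0 and 138 CPM. Nearly all of the difference between these sums was that of *Stmn2* itself, and *Gap43*, the highest of the others, was at 33.5 and 26.0 CPM. *Cldn5*, an endothelial junction gene, was at 4.18 and 14.8 CPM, while 10 endothelial markers together were at 43.1 and 50.8 CPM. The difference between these sums was smaller than that of *Cldn5* itself. *Egfl7* and *Pecam1*, the highest of the others, were at 18.95 and 19.4 CPM and at 14.29 and 10.35 CPM. The 10 glial and neural crest markers summed to 77.4 and 56.2 CPM, most of it from *Ngfr* (63.8 and 38.4 CPM), and the defining gene *Sox10* was at 0.407 and 3.04 CPM. *Lor*, which encodes a protein of the skin's outer layer, had the lowest ratio among genes of at least 50 CPM, reaching 9.72 CPM at E13.5, a log2 ratio of -3.24, and in 21.3% and 2.68% of cells. Epithelial markers other than *Epcam* and *Krt18* were at 2.58 CPM or less at both stages, and the source of the *Lor* UMIs was not tested. Several other large ratios belong to genes with near-identical copies, between which reads may be split: *Nme2* (23.1 and 124 CPM), *Gm10073* (63.5 and 314 CPM), *Rpl29* (539.8 and 83.0 CPM), *Rpl9* and *Rpl23a*. Those values are uncertain, and *Hspa1a* shares this limit. The value of *Lars2* (13.8 and 64.9 CPM), a mitochondrial tRNA synthetase gene, is also uncertain, and the source of its UMIs was not tested. *Lsm7* was at 30.4 and 104 CPM, *Ier5l* at 80.9 and 10.3 CPM and *Ccdc71l* at 55.3 and 7.84 CPM.

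The other sorted libraries give the levels of some of these genes at other stages. They do not stand for all genes past 2-fold. At E11.5, also dissociated with Dispase, *Id1* was at 1209 CPM, *Snai1* at 414 CPM, *Fhl2* at 99.3 CPM and *Gata2* at 39.5 CPM, all near the E12.5 values. At E14.5, in a library made with a later kit version and the same enzymes as at E13.5, they were at 105, 33.2, 19.8 and 1.3 CPM, near the E13.5 values. Some other genes that fell did not take this course. *Tagln* was at 14.4, 21.0, 4.83 and 30.3 CPM over E11.5, E12.5, E13.5 and E14.5. Over the same libraries *Tbx3* was at 40.9, 79.2, 38.8 and 32.2 CPM. The early progenitor list summed to 9657, 7904, 3329 and 2109 CPM over E11.5, E12.5, E13.5 and E14.5. The chondrogenic list summed to 942, 952, 2401 and 1719 CPM over the same libraries and to 5992 CPM in the proximal and 2047 CPM in the distal E16.5 library. *Tnmd* was at 1.27, 3.44, 15.1 and 216 CPM from E11.5 to E14.5, and *Mgp* at 1.68, 22.4, 108 and 206 CPM. *Lect1* did not go on rising, at 150.4 CPM at E13.5 and 94.0 CPM at E14.5. *Hspa1a* was at 77.6 CPM at E11.5 and 65.4 CPM at E14.5, above both stages compared here. These are single libraries, and the kit and enzyme changes run along with stage.

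**Figure D5:**
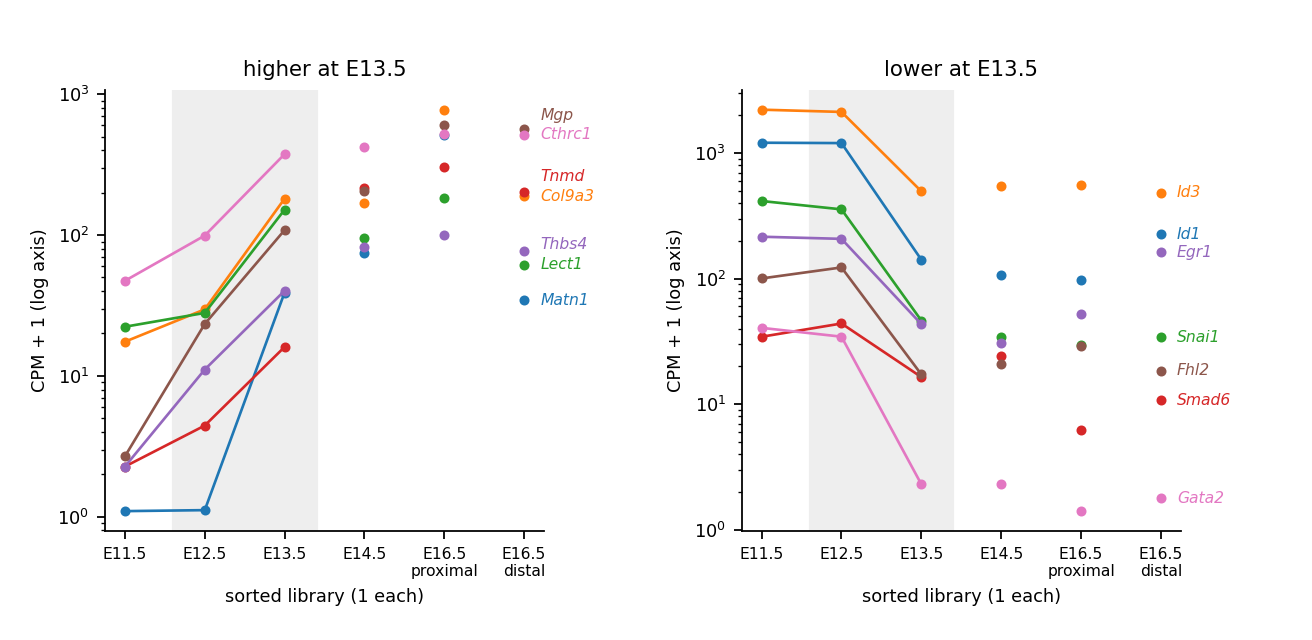
CPM + 1 on a log axis in each of the 6 sorted libraries for 7 genes higher (left) and 7 lower (right) at E13.5, with the compared stages shaded and lines joining only the libraries up to E13.5. *Id1*, *Snai1*, *Fhl2* and *Gata2* are level from E11.5 to E12.5 and low from E13.5 on, while *Tnmd* and *Mgp* climb from E11.5 through E14.5.

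Leaving out the cells with 3 or more chondrogenic markers from both libraries left 128 genes higher and 151 lower, among them 92 of the 120 and 132 of the 146. Leaving out cells with 3 or more chondrogenic, tendon or G2/M markers left 118 and 164, among them 82 and 133. The chondrogenic list then had a median log2 ratio of 0.53, and 11 of the 72 named genes past 2-fold no longer passed it, among them *Acan*, *Tnmd*, *Fmod*, *Six2* and *Gdf10*. *Acan*, *Tnmd*, *Fmod* and other members of that list were markers that chose the cells left out. Their lower values, and part of the drop in the median, follow from that choice.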

How the data were processed

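Processed files of 2 of the 8 libraries carried the comparison, and the others gave values set beside it. The authors aligned 10x 3′ reads and counted UMIs per gene and barcode with Cell Ranger against mm10 with 3 added sequences (SSM2GFP, tdTomato and CreERT2). The version was 3.0.2 for the 2 compared libraries and for the sorted E11.5, E14.5 and proximal E16.5 libraries. It was 6.0.1 for the distal E16.5 library and was not stated for the whole-limb libraries. The deposited values are raw counts of UMIs, with no normalization. Libraries held 44640777 UMIs at E12.5 and 46648357 at E13.5. Cells with at least 3000 UMIs and at most 10% mitochondrial UMIs were kept, summed per library and scaled to an equal total (CPM), with a pseudocount of 1 CPM and a floor of 10 CPM in the higher library. With 1 library a stage no test was run. Shares of cells were taken after thinning each cell to 3000 UMIs with a fixed seed, with exact binomial (Clopper-Pearson) intervals, and CPM intervals are exact Poisson, at 95%. Scrublet (scanpy 1.11.5) marked 9 and 7 cells, 0.191% and 0.114%, too few for the caller to have worked, so doublets were kept. *Xist* and a Y-linked gene were detected together in 1.82% and 2.22% of cells at equal depth. Genes named were the 12 highest and 12 lowest ratios at 50 CPM or more, the 8 and 8 of transcription factors, the 6 and 6 of secreted signals, up to 4 members a direction of each list, and defining members. Some genes that this rule selects are not reported here. Other genes were named for their role or after their values were seen. The members, gene lists and motifs were chosen with earlier results of these data known. Symbols duplicated in or missing from the files (*Ltbp4*, *Itgam*, *Rian*, *Mymk*, *Ahsp*) were not matched. Promoters are from RefSeq (18846 of 28001 identifiers matched). The script was checked on simulated data. Alternatives used edgeR 4.0.16 for TMM.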

Additional observations from a re-analysis of the deposited data

Results flagged for a closer look

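One added sequence of the reference that no comparison uses gave UMIs above the 3 that a count of 0 allows. SSM2GFP had 49 UMIs in the E12.5 library and 42 in the E13.5 library, 1.11 and 0.925 CPM, while the labelled genotype of both names no GFP. The methods name *ScxGFP* embryos as an alternative source of E11.5 and E12.5 limbs. All 6 sorted libraries held such UMIs, from 20 at E11.5 to 564 in the distal E16.5 library (0.635 to 3.54 CPM), while the 2 whole-limb E11.5 libraries held 1 and 0. The source of these UMIs was not tested.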

How the results depend on the processing

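With 1 library a stage no replicate could be left out, and no paired analysis was possible because each stage has 1 sample and no test was run. Against 120 genes higher and 146 lower, a pseudocount of 5 CPM gave 76 higher, a floor of 50 CPM gave 42 higher and 78 lower, no floor gave 302 higher, and a 1.5-fold threshold gave 352 higher and 434 lower. The other settings left both counts within 1.5 times. They were other UMI and mitochondrial limits, thinning before summing, TMM (107 and 156), median-of-ratios, a total without mitochondrial, haemoglobin and ribosomal protein genes (161 and 145), a pseudocount of 0.1 CPM, and leaving out doublet-scored, chondrogenic or G2/M cells. Of 72 named genes past 2-fold, 55 stayed past it under all 15 settings that recomputed single genes. The other 17 were *Sostdc1*, *Igfbp7*, *Tbx3*, *Foxc2*, *Fgf8*, *P4ha2*, *Nppc*, *Six2*, *Gdf10*, *Acan*, *Spry2*, *Nrp2*, *Tnmd*, *Fmod*, *Msx1*, *Fzd7* and *Ankrd37*. *Acan*, *Tnmd* and *Fmod* were lost only where cells chosen in part by these genes were left out. The log2 ratio of *Gdf10* reversed to -0.0454 without chondrogenic cells and to -0.0102 without chondrogenic, tendon and G2/M cells, and that of *Six2* to -0.0166 in the latter, both settings having fewer cells. The rise in the tendon class, 5.55 percentage points, became 8.95 with 2 or more markers, 2.39 with 4 or more and 9.26 unthinned, and the drop in the G2/M class of -4.61 points became -7.69 unthinned. The chondrogenic difference of 13.5 points stayed between 12.6 and 14. Leaving out the 5% of cells with the highest doublet score, and all 3 classes together, were added after the data were seen. Depth limits genes under about 10 CPM, and dissociation and stage cannot be told apart.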
